A study of Mus musculus with 6 samples.

Results

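Proteins that control splicing and RNA editing are themselves made from genes that can give circular RNAs (circRNAs), and this account is about such genes as circle hosts. All circRNAs whose listed host was Qk, Mbnl1, Mbnl2, Rbfox1, Celf1, Celf2, Adar, Adarb1 or Khdrbs3 were taken, by the Ensembl identifier of the host. They were 41 of the 11171 circRNAs in the table, from 8 of the 9 genes, and none of them was listed with a further host gene. Celf1 (2, 90940382 to 91019497) had no circRNA listed. The samples were cortex of male mice aged 6 weeks, of strain C57BL/6 by the sample labels and C57BL/6J by the study's methods, 1 library per mouse, prepared from total RNA after ribosomal RNA depletion with a directional kit. The 3 TLE mice had received scopolamine methyl bromide and then pilocarpine, which models temporal lobe epilepsy; their Status Epilepticus was stopped with diazepam and cortex was taken 24 h after it. The 3 Control mice had received saline.

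A circRNA forms when the end of an exon is joined backwards to the start of the same exon or of an exon upstream, a reaction called back-splicing. Proteins that bind the introns on either side can bring the ends together: Quaking, made by Qk, and Muscleblind, whose mammalian relatives are made by Mbnl1 and Mbnl2, are known for this, and fly muscleblind is known for a circle from its own gene. The editing enzymes made by Adar and Adarb1 change adenosines in double-stranded RNA and can loosen the paired introns that favour circles. Rbfox1, Celf2 and Khdrbs3 make regulators of alternative splicing that are active in neurons.

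The junction is the part of a circRNA that no linear transcript of the gene holds, so it is shown here for the most abundant circle of each host whose ends lay on annotated exons, with a second circle for Celf2 and for Khdrbs3, each close in abundance to the first. Each line joins the last 15 bases of the exon at the circle's end, in lower case, to the first 15 bases of the exon at its start, in capitals, read 5′ to 3′ on the strand of the gene and taken from the GENCODE M21 transcripts (mouse build GRCm38).
Qk mmu_circ_0003525: ttactggtacctgcgAAATTAGCAGAGTAC
Mbnl1 mmu_circ_0006844: acagacagactggagGGTCGTTGCTCCAGA
Mbnl2 mmu_circ_0002275: tttgattccctcaagAATTTAAAGAGGACG
Rbfox1 mmu_circ_0003408: ccgacttctatgcagCAATTTGGTAAAATA
Celf2 mmu_circ_0006297: ccctcacaagccctgCTGTGGAAGACAGAA
Celf2 mmu_circ_0006308: aaaactttacctgggTAACGGCACAGCCAA
Adar mmu_circ_0006954: tcctcacgaacccaaGGGTGTTCCCTCACC
Khdrbs3 mmu_circ_0002917: acctatggagagtatTTCAACTTTGTGGGG
Khdrbs3 mmu_circ_0002918: caccccagcacaaagTTCAACTTTGTGGGG
The pair from Khdrbs3 share the capitals and differ in the lower-case part, because they start at the same exon and end at different exons. The Mbnl2 circle is the exon closed on itself, so both parts come from a single exon.

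Expression is given in SRPBM, the reads spanning a junction scaled by the mapped reads of the library. Every SRPBM value was a whole multiple of a step, taken as 1 junction read, that lay between 8.55 (Control 1) and 10.3 SRPBM (TLE 1), and the smallest value above 0 was 2 steps. The Control libraries held 35598 to 41797 junction reads and the TLE libraries 32504 (TLE 1), 46653 (TLE 2) and 56516 (TLE 3). A value of 3 reads, 25.6 to 31.0 SRPBM by library, served as the floor and allows for counting error alone, and a listed 0 does not exclude reads up to it. SRPBM counts reads at a junction and not along the transcript, so levels of different circles are compared without a length correction. The table holds no linear RNA, so a change of a circle and a change of its host gene cannot be told apart here; in bulk cortex, fewer cells of a type and less RNA per cell cannot be told apart either. Of the cell type marker lists, 3 of 7 neuronal genes and 1 of 6 astrocyte genes hosted a circRNA, and none of the 7 oligodendrocyte, 5 microglial, 5 endothelial and 2 pericyte genes did. The summed SRPBM of the neuronal hosts lay between 529.8 and 753 in Control and between 589 and 839 in TLE libraries. The mean was higher in TLE for Grin2b (473 against 406 SRPBM) and Syt1 (228 against 185 SRPBM). It was lower for Rbfox3 (0 against 17.7 SRPBM, 6 reads). The part of this sum in the results was not tested.

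Most regulator circRNAs came from few genes. Khdrbs3 held 9 circRNAs and 431 of the 812 junction reads, Celf2 held 13 circRNAs and 147 reads, and Qk held 6 circRNAs and 140 reads. Mbnl2 held a single circRNA with 53 reads, and Rbfox1 held 9 circRNAs with only 31 reads. Mbnl1, Adar and Adarb1 each held a single circRNA, with 4, 4 and 2 reads. The number of circles and their abundance thus gave different orders: Rbfox1 equalled Khdrbs3 in circles but had 31 reads against 431. Among 3469 host genes ranked by mean SRPBM, Khdrbs3 stood at 91, Celf2 at 352, Qk at 369, Mbnl2 at 866 and Rbfox1 at 1204. At least 13 circRNAs, the number of Celf2, were listed for 2.51% of hosts.

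In detection the regulator circRNAs resembled the table as a whole. Of the 41, 19 (46.3%) were detected in exactly 1 library, against 45.4% of all circRNAs, and 27 (65.9%) had at most 10 junction reads, against 68.0%. A value above 0 in all 6 libraries was found for 8 (19.5%, against 13.9%), of which 5 came from Khdrbs3, 2 from Celf2 and 1 from Qk. By group, 19 were detected in Control and TLE libraries, 15 (36.6%) only in TLE libraries and 7 (17.1%) only in Control libraries. Over all circRNAs the corresponding shares were 30.5% and 22.6%, and TLE 2 and TLE 3 held more junction reads than any Control library. The circles found only in TLE libraries had 2 to 9 reads each, and whether they differ from Control was not tested.

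The circles were built from annotated exons. Both ends lay on exon boundaries of the host in 39 of 41 (95.1%, Wilson 95% confidence interval 83.9 to 98.7%), against 90.9% of the 10273 circRNAs with 1 listed host. The exceptions were mmu_circ_0003526 of Qk, whose start lay off a boundary, and the Adarb1 circle mmu_circ_0000376, whose end did. A median of 4 exons lay between the ends in the longest transcript that has both ends, and 3 in the transcript with the fewest exons, against 4 in either case over all circRNAs placed, and the summed exon length had a median of 463 bases against 613. The introns beside them were long: the median was 39395 bases before the start exon and 21089 bases after the end exon, against 10262 and 8664 bases over all circRNAs placed. These medians weigh circles of the same host that share an intron. In 5 of the 9 Rbfox1 circles the start was exon 4, which follows an intron of 415062 bases, and 5 of the 13 Celf2 circles started at exon 2, after an intron of 163238 bases. In 35 of 39 placed circles (89.7%, against 81.4%) every base was coding sequence, and only the circles of Mbnl2 and Adar held the start codon of their host.

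**Figure D1:**
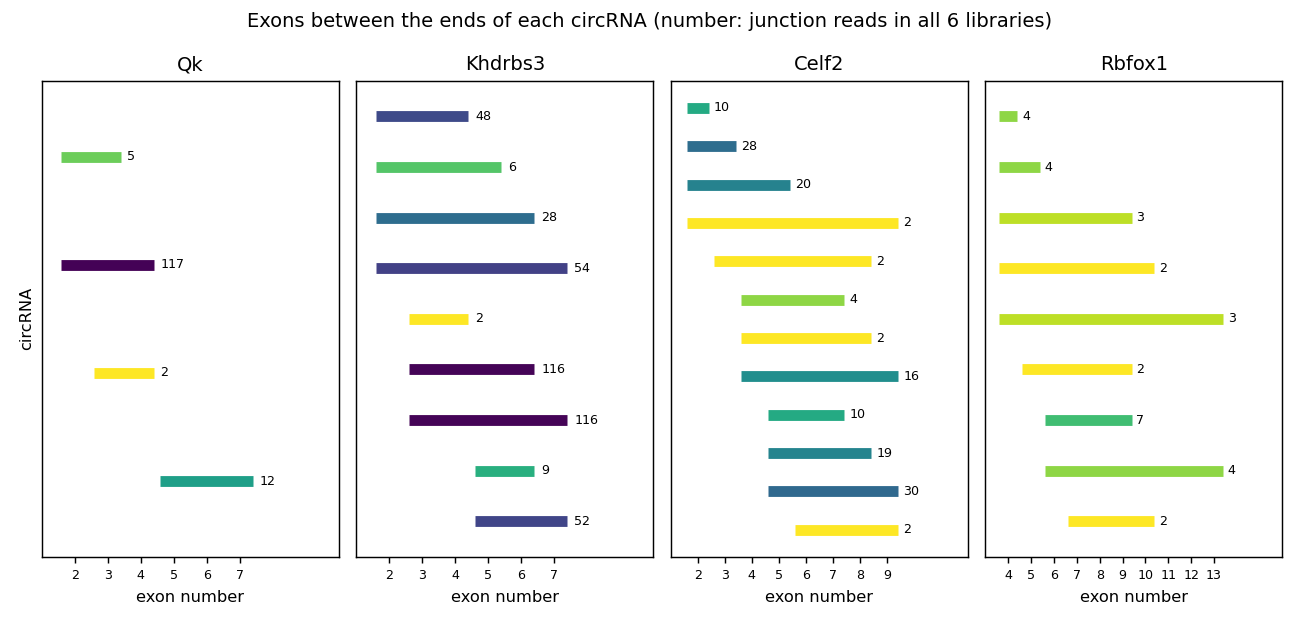
Exons between the ends of the circRNAs of Qk, Khdrbs3, Celf2 and Rbfox1 (horizontal axis, exon number in the transcript that holds most of the host's circles), each bar a circRNA with its junction reads over the 6 libraries beside it and darker colour for more reads. In Qk a single bar carries 117 reads, whereas in Khdrbs3 the reads spread over bars that share starts at exons 2, 3 and 5 and ends at exons 4, 6 and 7; Qk mmu_circ_0003522 and mmu_circ_0003526 and Celf2 mmu_circ_0006293, which were not placed on these transcripts, are not drawn.

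Qk, whose protein binds introns and brings back-spliced exons together, had most of its circle reads at 1 junction. The circRNA mmu_circ_0003525 (17, 10238893 to 10282981, minus strand) spans exons 2 to 4, 404 bases, and carried 117 of 140 reads (83.6%). It measured 145, 167 and 181 SRPBM in Control libraries 1, 2 and 3 and 145, 167 and 242 SRPBM in TLE libraries 1, 2 and 3. The groups overlapped, with TLE 3 above the others. The means were 164.5 ± 18.0 SRPBM (SD, n = 3) in Control and 184.5 ± 51.2 SRPBM (SD, n = 3) in TLE. The log2 fold change was 0.13 (SE 0.31, 95% confidence interval -0.53 to 0.79, limma, Benjamini-Hochberg adjusted p = 0.933).

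The other Qk circles were rare. The circle of exons 5 to 7, mmu_circ_0003523, had 12 reads in 3 libraries, and the circle of exons 2 and 3, mmu_circ_0003527, had 5 reads, all in TLE libraries. The remaining 3 had 2 reads each, in a single library. Exon 2 was the start in 87.1% of Qk reads and exon 4 the end in 86.4%. Summed over its circles, Qk measured 162, 214 and 181 SRPBM in Control and 176, 193 and 329 SRPBM in TLE libraries.

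Khdrbs3, which makes the KH-domain splicing regulator SLM2, was the most abundant host of the 9. Its circles summed to 556, 651 and 594 SRPBM in Control libraries and to 496, 719 and 839 SRPBM in TLE libraries. TLE 1 lay below every Control library and TLE 2 and TLE 3 above them. The log2 fold change of the sum was 0.16 (SE 0.25, 95% confidence interval -0.37 to 0.68, adjusted p = 0.912, limma).

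No junction dominated in Khdrbs3. The circle of exons 3 to 6, mmu_circ_0002917 (15, 69013358 to 69029910), and that of exons 3 to 7, mmu_circ_0002918 (15, 69013358 to 69049461), had 116 reads each. The longer circle holds 683 bases and the shorter 600. The shorter one measured 85.5, 139 and 172 SRPBM in Control and 217, 158 and 277 SRPBM in TLE libraries. Its groups overlapped through TLE 2, which lay below Control 3, and the log2 fold change was 0.66 (SE 0.34, 95% confidence interval -0.06 to 1.38, unadjusted p = 0.0687, adjusted p = 0.922, limma). Its means were 132 ± 43.8 in Control and 217 ± 59.5 SRPBM in TLE (SD, n = 3), and this p was the smallest among the regulator circRNAs. The longer one measured 171, 139 and 189 SRPBM in Control and 114, 140 and 277 SRPBM in TLE libraries, a log2 fold change of -0.00 (95% confidence interval -0.74 to 0.73). The means of the longer one were 167 ± 25.3 in Control and 177 ± 87.6 SRPBM in TLE (SD, n = 3). Both circles of the pair thus had the higher mean in TLE libraries, with the larger difference for the circle that ends at exon 6. On the log scale the means of the longer circle were equal.

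The other Khdrbs3 circles used the same few ends. The circle of exons 5 to 7, mmu_circ_0002920, measured 85.5, 121 and 86.1 SRPBM in Control and 51.6, 87.7 and 34.6 SRPBM in TLE libraries, so that TLE 2 lay within the Control values and the others below them (log2 fold change -0.66, 95% confidence interval -1.56 to 0.25, adjusted p = 0.922, limma). Exons 2 to 7 formed mmu_circ_0002915, which measured 76.9, 158 and 51.7 SRPBM in Control and 0, 122.7 and 69.2 SRPBM in TLE libraries. Exons 2 to 4 formed mmu_circ_0002912, which measured 76.9, 27.9 and 68.9 SRPBM in Control and 72.3, 78.9 and 104 SRPBM in TLE libraries. For these the groups overlapped. The values of mmu_circ_0002914, exons 2 to 6, lay between 20.7 and 60.6 SRPBM in the 6 libraries. Of the least abundant circles, that of exons 5 and 6, mmu_circ_0002919, was listed at 0 in all Control libraries and had 2 and 7 reads in TLE 1 and TLE 2.

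Starts at exon 3 carried 54.3% of Khdrbs3 reads, exon 2 carried 31.6% and exon 5 carried 14.2%. Ends at exon 7 carried 51.5% and at exon 6 35.5%, so the choice between these 2 ends covered most of the host's circles. It was examined after the values had been seen and has no test. Among the 6 circRNAs that end at exon 6 or 7, the share of SRPBM ending at exon 7 was 72.2%, 69.2% and 62.3% in Control libraries and 39.0%, 56.3% and 53.0% in TLE libraries. Every TLE library lay below every Control library, with means of 67.9 ± 5.09% and 49.5 ± 9.19% (SD, n = 3). These shares rest on 54 to 83 reads in each library except TLE 1, which had 41. Without TLE 1 the difference of the means was -13.2 percentage points, against -18.5 with it. Among circles that start at exon 3 the groups overlapped, at 66.7%, 50.0% and 52.4% in Control and 34.4%, 47.1% and 50.0% in TLE libraries. For starts at exon 2 they overlapped too, at 64.3%, 77.3% and 66.7% in Control and 0%, 70.0% and 53.3% in TLE libraries. Starts at exon 5 gave 100% in each Control library and 71.4%, 58.8% and 100% in TLE libraries. The groups were thus apart only with the starts pooled. The same kind of share, computed for the 2 leading end sites of each host with at least 10 reads in every library, did not overlap between groups in 27 of 366 hosts (7.38%), and by the size of its difference Khdrbs3 stood at place 17 of 366.

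Celf2, whose protein binds U- and G-rich sequences in introns, had the most circles and none that led clearly. The circle of exons 5 to 9, mmu_circ_0006297 (2, 6585974 to 6615822, minus strand), had 30 reads and that of exons 2 and 3, mmu_circ_0006308 (2, 6664115 to 6721613), had 28. The first measured 42.7, 18.6 and 25.8 SRPBM in Control and 51.6, 87.7 and 43.3 SRPBM in TLE libraries, so that every TLE library lay above every Control library, although TLE 1 and TLE 3 held 5 reads each, as Control 1 did. Its log2 fold change was 0.75 (SE 0.52, 95% confidence interval -0.36 to 1.86, adjusted p = 0.922, limma). The second measured 76.9, 27.9 and 17.2 SRPBM in Control and 20.7, 70.1 and 34.6 SRPBM in TLE libraries, with overlapping groups. The values of mmu_circ_0006300, exons 5 to 8, were ordered the other way, with 25.6, 37.2 and 68.9 SRPBM in Control and 0, 17.5 and 17.3 SRPBM in TLE libraries and no overlap (log2 fold change -1.10, SE 0.63, 95% confidence interval -2.43 to 0.24, adjusted p = 0.922, limma).

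These 2 Celf2 circles share their start at exon 5 and differ in the end, exon 9 or exon 8. They were set against each other after their values had been seen, so the comparison is a description. They were the 2 of the 18 regulator circRNAs tested whose groups did not overlap, and their directions were opposite. A separation of their share between groups therefore follows from the choice of this pair. Celf2 was not among the 366 hosts counted, which needed at least 10 reads in every library at their 2 leading end sites. Its leading end sites, exons 9 and 3, had 3 and 2 reads in Control 3. The share ending at exon 9 was 62.5%, 33.3% and 27.3% in Control and 100%, 83.3% and 71.4% in TLE libraries, from 30 reads at exon 9 and 19 reads at exon 8 over all libraries. The pair together measured 55.8 to 94.8 SRPBM in Control and 51.6 to 105 SRPBM in TLE libraries. When the 7 circles that end at either exon were taken, whatever their start, the groups overlapped, at 76.9%, 50.0% and 27.3% in Control and 100%, 81.0% and 73.3% in TLE libraries. The 100% of TLE 1 rests on 5 reads.

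**Figure D2:**
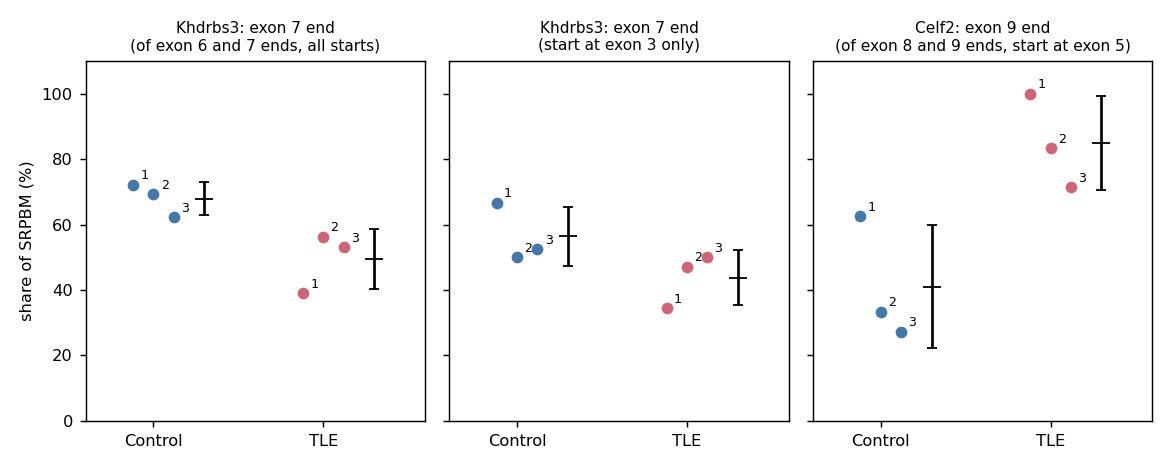
Share of SRPBM (vertical axis, percent) at the more distal of 2 end exons in each library, with the replicate number beside each point and the mean and SD of 3 libraries at its side: Khdrbs3 exon 7 against exon 6 over all starts, the same for starts at exon 3, and Celf2 exon 9 against exon 8 for starts at exon 5. The TLE points lie below the Control points in the left panel (39.0 to 56.3% against 62.3 to 72.2%), overlap them in the middle panel and lie above them in the right panel (71.4 to 100% against 27.3 to 62.5%). The circles of the right panel were paired after their values had been seen, and the separation there follows from that choice.

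Summed over its 13 circles, Celf2 measured 248, 177 and 146 SRPBM in Control and 124, 342 and 268 SRPBM in TLE libraries. TLE 1 was the lowest and TLE 2 the highest of the 6 libraries. The log2 fold change of the sum was 0.26 (SE 0.37, 95% confidence interval -0.52 to 1.04, adjusted p = 0.907, limma). Exon 2 was the start in 42.2% of Celf2 reads and exon 5 in 40.1%, and exon 9 was the end in 34.0%. Exon 2 on its own, 197 bases, formed the circle mmu_circ_0006309, with 10 reads in 4 libraries.

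The pair of Muscleblind genes differed in abundance. The Mbnl2 circle mmu_circ_0002275 (14, 120324794 to 120325412, plus strand) is a single exon, exon 2 of the transcript it was placed on, 619 bases, which holds the start codon and is 28.1% coding. It measured 51.3, 158 and 60.3 SRPBM in Control and 0, 140 and 60.6 SRPBM in TLE libraries, the 0 being listed in the shallowest library. Libraries of the same group differed more than the group means, which were 89.9 ± 59.2 and 67.0 ± 70.4 SRPBM (SD, n = 3). The log2 fold change was -0.72 (95% confidence interval -2.12 to 0.69, adjusted p = 0.922, limma), and 0.18 without TLE 1. Mbnl1 gave mmu_circ_0006844, exons 3 and 4 (3, 60595594 to 60603894, 372 bases), with 4 reads in TLE 3 and 0 listed elsewhere.

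Rbfox1, a neuronal splicing regulator that binds GCAUG, spread its few reads over 9 circles with 2 to 7 reads each. The leading circle, mmu_circ_0003408, spans exons 6 to 9, 262 bases (16, 7285478 to 7306461, plus strand), and had 2 reads in each of Control 1 and Control 3 and 3 reads in TLE 3. The summed circles measured 17.1, 65.1 and 51.7 SRPBM in Control and 20.7, 35.1 and 86.5 SRPBM in TLE libraries, with overlapping groups (log2 fold change 0.03, 95% confidence interval -1.25 to 1.30). A further 7 of its circles were each seen in a single library.

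The editing enzymes left almost no circles. The Adar circle mmu_circ_0006954 covers exons 2 to 6, 2089 bases with the start codon (3, 89734842 to 89740278), and had 2 reads in Control 1 and 2 in Control 3. The Adarb1 circle had 2 reads in TLE 3. Both lay under the floor of 3 reads in every library, so no fold change is given.

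**Figure D3:**
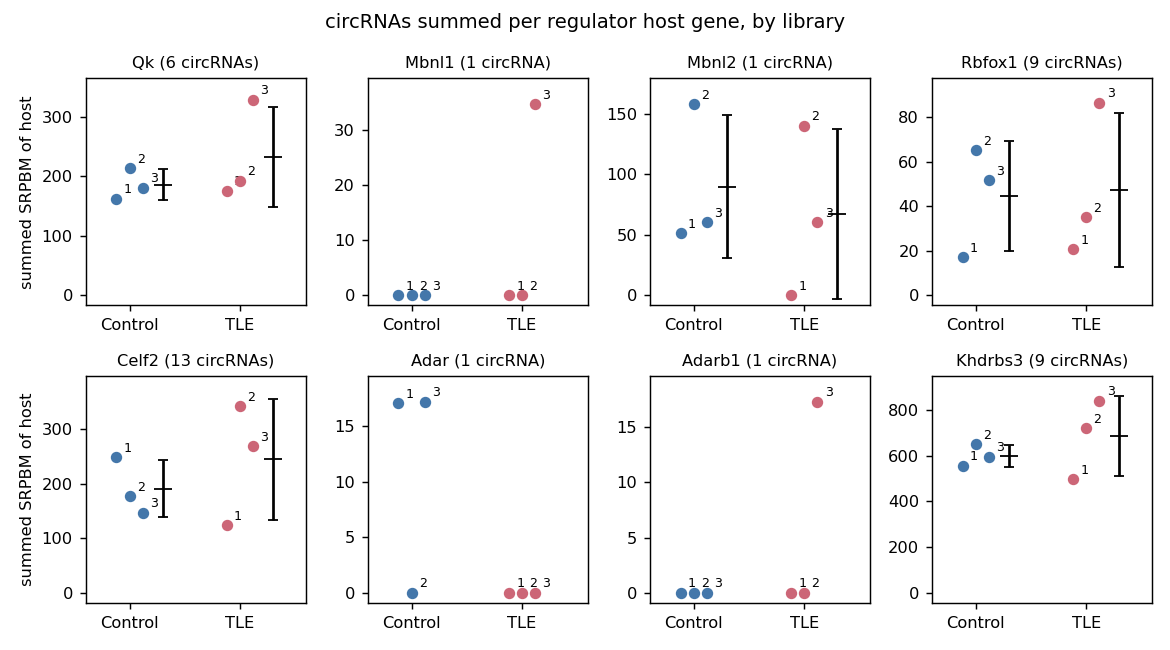
Summed SRPBM of the circRNAs of each regulator host (vertical axis, separate scale for each gene) in the 3 Control and 3 TLE libraries, with the replicate number beside each point, and mean and SD shown for the 5 hosts tested. Control and TLE points overlap in each of these 5 panels, and TLE 3 is the highest library for Khdrbs3 (839), Qk (329) and Rbfox1 (86.5).

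The comparison of TLE with Control called none of the regulators. The fit was made with limma on log2(SRPBM + 17.1), adding the lowest value listed above 0, and covered 4271 circRNAs, those with a value in at least 3 libraries. The study called circRNAs from DESeq2 at a log2 fold change of 1.5 either way and p under 0.05, without mention of adjustment. Here the same cut-offs were set on the limma fit, with p taken before adjustment, so these calls do not repeat the study's own. Adding 17.1 SRPBM also keeps the fold changes of circles with few reads small. Of the 41 regulator circRNAs, 18 entered this fit and 23 did not. None of the 18 was called, and 0 had an unadjusted p under 0.05, against 1.57% of all circRNAs tested that were called and 5.20% with an unadjusted p under 0.05. The 67 calls were 54 higher and 13 lower in TLE, but 40 and 42 without TLE 2, 33 and 55 without TLE 3, and 37 and 25 with the libraries rescaled to the same total. At these shares fewer than 1 call would be found among 18 circRNAs, so the count of 0 does not set the regulators apart. The log2 fold changes ran from -1.10 to 0.75 with a median of 0.05, 10 above and 8 below 0, against a median of 0.17 over all circRNAs tested. With the libraries rescaled these medians were -0.08 and 0.01. Benjamini-Hochberg adjusted p-values lay between 0.922 and 0.998, and the smallest over the whole table was 0.838.

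The values of Control and TLE libraries did not overlap in 2 of the 18 circRNAs, both from Celf2, against 11.1% of all circRNAs tested. The intervals were wide: for 9 of the 18 circRNAs the 95% interval reached past a log2 fold change of 1.5 in at least 1 direction, so a change of that size is not excluded for them. They included circles of 52, 53 and 54 reads, whereas a circle of 6 reads had its interval within these bounds, and adding 17.1 SRPBM keeps the fold changes of circles with few reads small. The other 9 had intervals within these bounds, among them the 2 leading circles of Khdrbs3 and the leading circle of Qk.

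For circRNAs summed per host, 2157 hosts above 0 in at least 3 libraries were tested, among them Khdrbs3, Qk, Celf2, Mbnl2 and Rbfox1. None of the 5 was called by limma and 0 had an unadjusted p under 0.05, against 41 of all hosts called (1.90%) and 133 with an unadjusted p under 0.05 (6.17%). The 41 calls were 33 higher and 8 lower in TLE, but 24 and 22 without TLE 3 and 22 and 11 with the libraries rescaled. Control and TLE values overlapped in all 5, while they did not overlap in 12.7% of hosts. The fold changes were 0.26 for Qk and Celf2, 0.16 for Khdrbs3, 0.03 for Rbfox1 and -0.72 for Mbnl2 on the log2 scale, with a median of 0.16 against 0.20 over all hosts. The p-values measure the spread between mice, with 3 in each group.

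**Figure D4:**
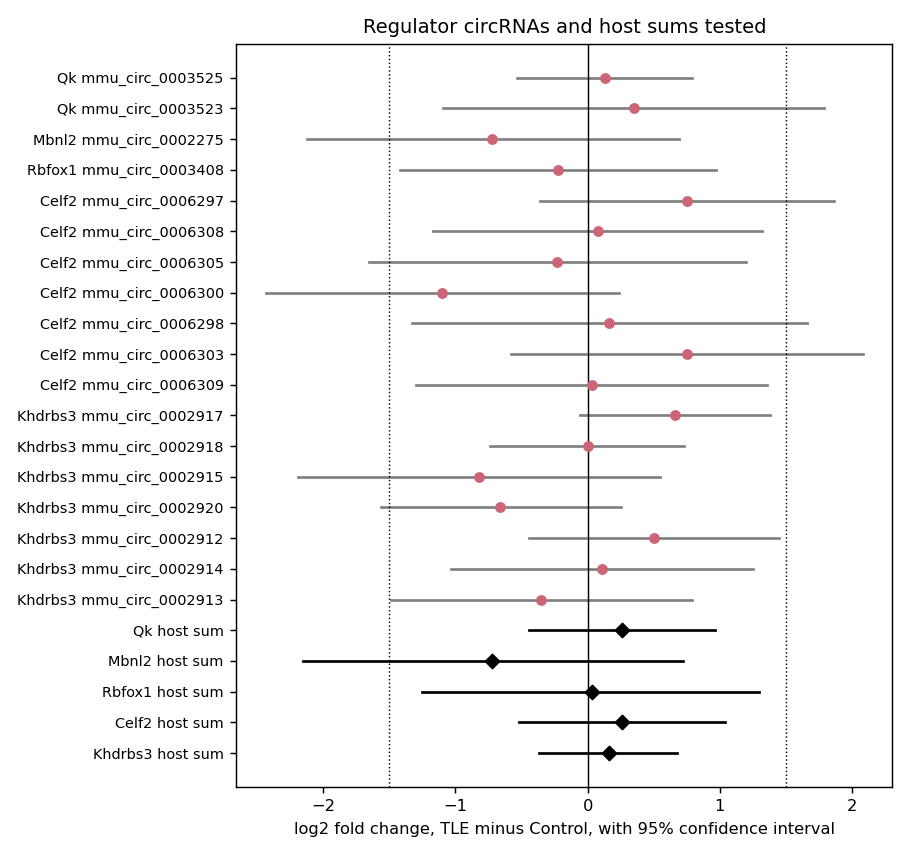
Log2 fold changes on the log2(SRPBM + 17.1) scale, TLE minus Control (horizontal axis), with 95% confidence intervals from limma, for the 18 regulator circRNAs tested (points) and the 5 host sums (diamonds); dotted lines mark the threshold of 1.5 in each direction. Every interval crosses 0, and all point values lie between -1.10 and 0.75.

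Taken over the 9 genes, the circles summed to 1051, 1264 and 1051 SRPBM in Control and 816, 1429 and 1635 SRPBM in TLE libraries (1122 ± 123 and 1293 ± 426, SD, n = 3). TLE 1 lay below and TLE 2 and TLE 3 above every Control library, and these TLE libraries stood in the same order by junction reads. The mean of the TLE libraries less that of the Control libraries was 171 SRPBM, but -58.3 with the libraries rescaled to the same total, 0.423 without TLE 3 and 410.1 without TLE 1. The share of the total SRPBM of a library was 0.299%, 0.382% and 0.292% in Control and 0.243%, 0.349% and 0.334% in TLE libraries. The number of regulator circRNAs detected was 18, 20 and 17 in Control and 13, 21 and 26 in TLE libraries. After thinning each library to 32504 reads it was 16.1, 18.9 and 14.1 in Control and 13.0, 17.9 and 18.2 in TLE libraries, as means of 100 draws. The difference of the means in the number detected was 1.67 with all libraries, -1.33 without TLE 3 and 5.17 without TLE 1.

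The make-up of the hosts was compared by the share of the leading circle in the sum. The leading circle had the highest mean over all 6 libraries, TLE included. In Control alone, mmu_circ_0002918 lay above mmu_circ_0002917 (167 against 132 SRPBM). In Celf2, mmu_circ_0006308 lay above mmu_circ_0006297 there (40.7 against 29.05 SRPBM). The choice for Khdrbs3 and Celf2 thus drew on high TLE values, so their shares and exact p-values cannot decide whether the make-up differs. For Khdrbs3, mmu_circ_0002917 made up 15.4%, 21.4% and 29.0% in Control and 43.8%, 22.0% and 33.0% in TLE libraries (p = 0.2 in a two-sided exact permutation test, n = 3 and 3). The equally abundant mmu_circ_0002918 made up 30.8%, 21.4% and 31.9% in Control and 22.9%, 19.5% and 33.0% in TLE libraries, a description chosen after its values were seen. For Celf2, mmu_circ_0006297 made up 17.2%, 10.5% and 17.6% in Control and 41.7%, 25.6% and 16.1% in TLE libraries (exact p = 0.3). For Qk the share lay between 73.7% and 100% in the 6 libraries (exact p = 0.4), and for Rbfox1 it rested on at most 3 reads of the leading circle in a library (exact p = 0.4). The design cannot give a p under 0.1, and after Benjamini-Hochberg adjustment over these 4 comparisons all were at 0.4.

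The sequence motif that a regulator is known to bind was counted in its own leading circle, on the transcribed strand and across the junction, and set against circRNAs within 20% of its length. ACTAA, the core of the Quaking site, occurred 1 time in the Qk circle of 404 bases, and 17.4% of 2350 circRNAs of like length held it. TGCT, part of the Muscleblind site, occurred 8 times in the Mbnl2 circle, where the median of 2369 circRNAs was 3. In the Mbnl1 circle it occurred 3 times, where the median of 2031 circRNAs was 2. TGCATG was not in the Rbfox1 circle (5.79% of circRNAs of like length held it), TGTGT not in the Celf2 circle (45.4%) and TAAA not in the Khdrbs3 circle (77.6%). The shorter GCATG, without the leading T, was not counted. These are counts of letters and not of binding sites.

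Relatives of the 9 genes and other regulators were counted in the same way, beside 1.90% of all hosts called, 6.17% with an unadjusted p under 0.05 and a median log2 fold change of 0.20. Of 10 further members of the families (Rbfox2, Rbfox3, Mbnl3, Celf3 to Celf6, Khdrbs1, Khdrbs2 and Adarb2), 6 hosted circRNAs, 2 were tested as host sums, 0 were called and 0 had an unadjusted p under 0.05. Adarb2, a brain relative of the editing enzymes, had 8 circRNAs that summed to 94.0, 46.5 and 68.9 SRPBM in Control and 103, 105 and 251 SRPBM in TLE libraries. Every TLE library lay above every Control library, as groups did not overlap in 12.7% of all hosts (log2 fold change 0.90, SE 0.45, unadjusted p = 0.0604, adjusted p = 0.834, limma). Of 61 other splicing regulators, 20 hosted circRNAs, 9 were tested, 0 were called and 0 had an unadjusted p under 0.05, with a median log2 fold change of 0.01. Elavl3, which makes a neuronal RNA-binding protein, led this list with 372 reads and a log2 fold change of 0.28. The log2 fold changes in this list ran from -0.44 (Rbm6) to 1.14 (Matr3, SE 0.62, unadjusted p = 0.0823, adjusted p = 0.834, limma). Matr3 measured 34.2, 0 and 68.9 SRPBM in Control and 72.3, 70.1 and 86.5 SRPBM in TLE libraries, without overlap, as in 12.7% of all hosts.

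Among 23 genes for binding of double-stranded RNA and for modification, export and turnover of circles, 9 hosted circRNAs, 5 were tested, 0 were called and 1 of the 5 had an unadjusted p under 0.05, against 133 of 2157 hosts. This was Stau1, which makes a double-stranded RNA-binding transport protein, with 42.7, 18.6 and 17.2 SRPBM in Control and 0 listed in each TLE library (unadjusted p = 0.0412, adjusted p = 0.772, limma), from 9 reads in all. Its relative Stau2 had 16 circRNAs that summed to 368, 251 and 362 SRPBM in Control and 578, 342 and 562 SRPBM in TLE libraries, with overlapping groups.

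The host genes whose summed circles followed the sum of the 9 regulators most closely over the 6 libraries were Mboat2 (Pearson r 0.994), Ssbp2 (0.985) and Mcph1 (0.980), among 1172 hosts above 0 in every library, whose median r was 0.378. SRPBM is scaled by the mapped reads of a library, but the total SRPBM still differed, from 330961 in Control 2 to 489032 in TLE 3. Whether these correlations follow that total was not tested, and they describe 6 libraries only.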

How the data were processed

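The authors called circRNAs with CIRI from ribosome-depleted total RNA and deposited a normalized signal, SRPBM, for each circRNA and library; the submitters' processing notes name build mm10 and DESeq2. The 6 deposited tables were identical and 1 was read. Hosts were matched by Ensembl identifier, and ends were placed on GENCODE M21 exons (GRCm38), in the longest transcript with both ends on boundaries. Differences were fitted with limma 3.58.1 in R 4.3.3 (trend, two-sided) over the whole table, with Benjamini-Hochberg adjustment. The fit was first run on simulated reads that varied by counting error alone. That run held no spread between mice and cannot check how the fit handles it. CircRNAs and hosts above 0 in fewer than 3 libraries were not tested. Junction reads were read from the step of each library, from which no value deviated by more than 0.011 read, and serve as descriptions only. Circles were named when they led their host, were above 0 in all 6 libraries or had an unadjusted p under 0.05; others are named to describe their host and were chosen after their values were seen. The members and lists were chosen with earlier results of these data known. A test planned for the sums over the 9 genes is not given, since the genes were chosen as a list. Same-numbered libraries of the groups did not deviate together (correlations 0.019, 0.014 and 0.010).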

Additional observations from a re-analysis of the deposited data

Results flagged for a closer look

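Some circRNAs lay within a regulator gene on its strand but had no listed host, so they are not among the 41. They were set apart because their mean in TLE libraries was above that in Control libraries; the differences were not tested. A group of 3 lies within the span of Rbfox1 on chromosome 16 and shares the end 5956863. The longest, mmu_circ_0003368 (start 5952577), had a mean of 24.3 SRPBM in TLE, with 20.7, 17.5 and 34.6 SRPBM in the TLE libraries and 0 listed in each Control library. These values rest on 8 reads in all. Detection in TLE libraries only was found for 30.5% of all circRNAs, and groups did not overlap in 11.1% of all circRNAs tested. The next, mmu_circ_0003369 (start 5953419), had means of 46.5 SRPBM in TLE and 14.2 SRPBM in Control, and mmu_circ_0003370 (start 5956249) had 34.9 and 22.9 SRPBM. With 21 and 20 reads the last 2 exceeded each listed Rbfox1 circle, and both were listed at 0 in TLE 1. Within Celf2, mmu_circ_0006310 (2, 6721417 to 6784388) had means of 11.5 SRPBM in TLE and 5.70 SRPBM in Control, from 6 reads in 2 libraries.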

How the results depend on the processing

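Under all 14 alternatives the number of regulator circRNAs and of regulator hosts called was 0; an unadjusted p under 0.05 was found for 3 of 17 regulator circRNAs without TLE 2, against 146 of 3685 circRNAs, for 1 of 17 without Control 3, against 188 of 3725, and for 1 of 5 regulator hosts without TLE 2, against 97 of 1961. Over the whole table, 67 circRNAs were called, and 168 with a pseudocount of 1 junction read, 130 with 1 SRPBM, 196 with a log2 threshold of 1, 1 with a value above 0 required in all 6 libraries and 82 to 110 with 1 library left out. For hosts the number was 41, and 77 with a pseudocount of 1 junction read, 109 with the threshold of 1, 1 with all 6 libraries required and 41 to 65 with 1 library left out. The smallest adjusted p (limma) over all circRNAs was 6.3e-06 with no filter on low values and 0.00774 without TLE 1. Over all hosts it was 0.00221 and 0.00927 in these settings. For the regulators it was never under 0.597 for circRNAs and 0.473 for hosts. With the libraries rescaled to the same total, the log2 fold change turned to -0.16 for the Rbfox1 host sum, -0.07 for the Khdrbs3 host sum, -0.08 for Qk mmu_circ_0003525 and for Celf2 mmu_circ_0006308, and -0.07 for Khdrbs3 mmu_circ_0002914. With 1 library left out, the direction turned within a range of -0.38 to 0.35 for the Rbfox1 host sum, -0.02 to 0.66 for Celf2, -1.42 to 0.18 for Mbnl2 and its circle mmu_circ_0002275, -0.07 to 0.27 for mmu_circ_0003525, -0.25 to 0.50 for mmu_circ_0006308 and -0.09 to 0.43 for mmu_circ_0002914. The causes were not tested. With the replicate number as a block, 67 circRNAs and 41 hosts were called and 0 regulators, and the Khdrbs3 host sum stayed at 0.16; the numbers do not pair the mice. Count models (edgeR, DESeq2) and the motif search in flanking introns were not run. The limits are 3 mice in each group, results that turn with 1 library or with the scaling, and depth: 27 of 41 circles had at most 10 reads.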
